A study of Mus musculus with 9 samples.

Results

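The 10 genes described here encode the cadherins Cdh1, Cdh2 and Cdh3, the epithelial splicing factors Esrp1 and Esrp2, the transcription factor Grhl2, and the epithelial membrane and trafficking proteins Epcam, Rab25, Spint1 and Spint2. They were taken by name from the platform annotation, where each had 1 probe set, and make up 10 of 19938 genes measured on the array. Their RNA was compared in 3 mouse cell lines with 3 arrays each. P19 NTES7 is a stem cell line established from a blastocyst that was cloned by transferring a P19 nucleus into an enucleated oocyte. The sample labels call it only stem cells derived from P19, and the name P19 NTES7 comes from the study's text, where it is the only such line in the array results. P19 is an embryonal carcinoma line, that is, a tumor line that keeps part of the developmental potential of the early embryo, and R1 is an embryonic stem (ES) cell line. The labels name no treatment or introduced gene for any line, and all were kept in serum medium with the cytokine LIF. Each group is a single line, so a difference between groups is also one between individual lines, and R1 is not derived from P19. According to the methods, inactivated mouse fibroblasts lay under the P19 NTES7 and ES cultures and not under P19, and ES cells were harvested without feeders. The series' design text states that feeder cells were removed and names no line.

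E-cadherin, the product of Cdh1, holds epithelial cells together through calcium-dependent contacts between its extracellular domains, and its tail binds catenins that join it to actin. Mouse ES cells grow as compact colonies through E-cadherin. When epithelial cells become mesenchymal, Cdh1 is typically lost and Cdh2, which encodes N-cadherin, is gained, a change known as the cadherin switch. Repressors of the Snail and Zeb families act on Cdh1, whereas Grhl2 and the splicing factors Esrp1 and Esrp2 maintain the epithelial state.

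The values are intensities made by the authors with Robust Multichip Average (RMA), a method that summarises the probes of a gene into 1 level. Array medians ran from 16.5 to 17.5, and a value near or below the median is close to the floor of the array, so a fold against it is not exact. A gene was called where its Benjamini-Hochberg adjusted p from limma was under 0.01 over all 28853 probe sets and its fold was over 2. The labels give 3 biological replicates for each line, without saying whether they were grown as separate cultures, and the p-values therefore cover the spread among these arrays and no more. Errors of levels are SDs over 3 arrays. Arrays of the same line correlated at 0.989 to 0.998 over all log2 values, and arrays of different lines at 0.9775 at most. Without the third R1 array, 2259 probe sets were called in P19 against R1, compared with 2135 with all arrays. In P19 NTES7 against R1 these counts were 1436 and 1305. The embryonic transcription factor Pou5f1 was far above the array median in all lines, at 1471 ± 199 in P19 NTES7, 2196 ± 109 in P19 and 1470 ± 153 in R1.

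Most of the 10 genes were lower in P19 than in R1, and most of these stayed below R1 in P19 NTES7. Of the 10 genes, 7 were called lower in P19 than in R1 and 0 higher, namely Cdh1, Cdh3, Esrp1, Esrp2, Grhl2, Rab25 and Spint2. Over all probe sets, 3.70% were called lower in this comparison and 7.40% in either direction. In P19 NTES7 against R1, 6 were called lower, which were the same genes without Spint2, and 1 higher, Cdh2, where 2.53% of all probe sets were called lower, 1.99% higher and 4.52% in either direction. In P19 NTES7 against P19, 1 of the 10, Cdh1, was called higher and 0 lower, where 1.55% of all probe sets were called higher, 1.36% lower and 2.91% in either direction. The median log2 difference of the 10 genes was 0.25 for P19 NTES7 against P19, -1.34 for P19 against R1 and -1.13 for P19 NTES7 against R1. The medians over all probe sets lay between -0.03 and 0.03. The arrays did not overlap for 7 of the genes in P19 NTES7 against P19, where 34.4% of all probe sets did not overlap, for 8 in P19 against R1 (45.3% of all probe sets) and for all 10 in P19 NTES7 against R1 (36.6%). The comparisons share lines, so their counts are not independent of each other. Adding an offset of 16 before log2, which shrinks folds of dim genes, ended the calls of Cdh3, Esrp2 and Rab25 against R1 in P19 and in P19 NTES7, that of Cdh1 in P19 NTES7 against P19 and that of Cdh2 in P19 NTES7 against R1, with the directions kept.

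**Figure D1:**
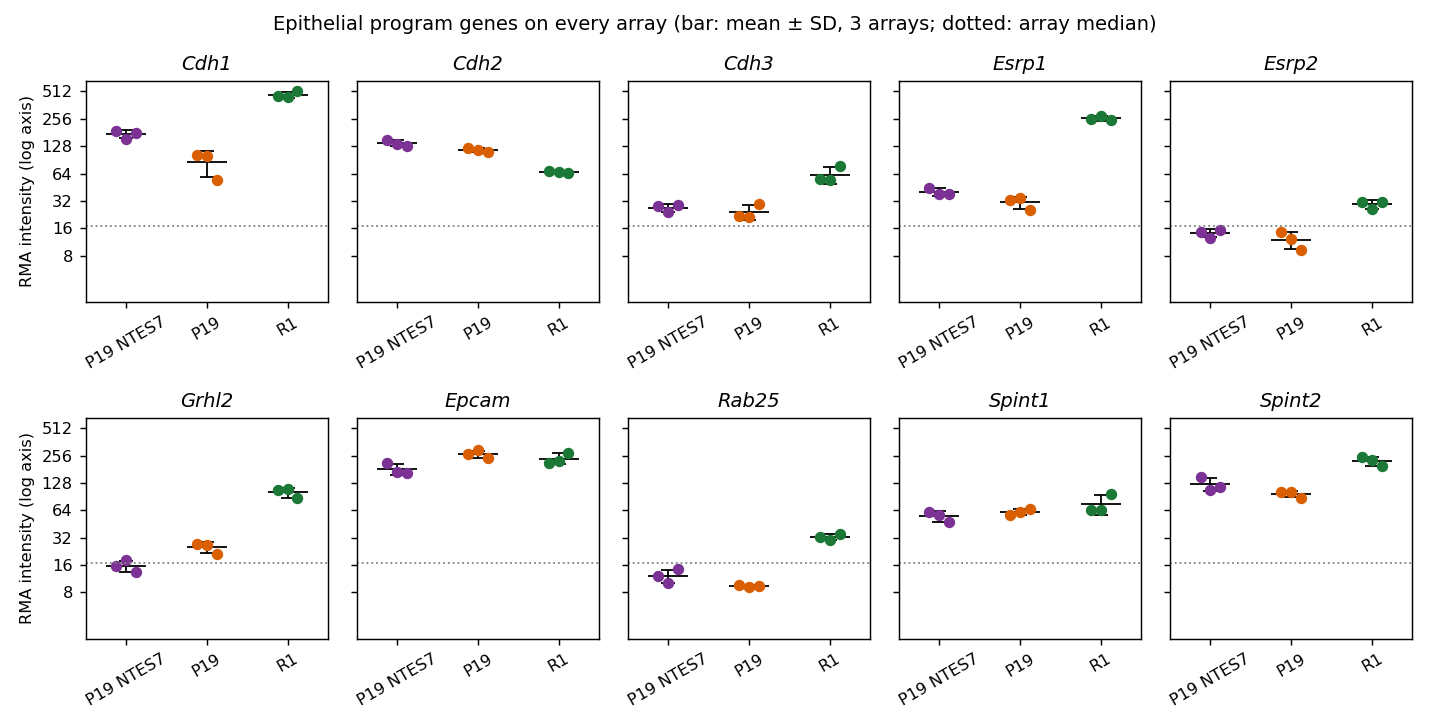
RMA intensity (log axis) of each of the 10 genes on the 3 arrays of P19 NTES7, P19 and R1, with the mean and SD of each line and the array median as a dotted line. Esrp1 lies between 25.6 and 44.5 on the arrays of P19 NTES7 and P19 and between 248 and 276 on those of R1, while Cdh2 runs the other way and Epcam and Spint1 stay within a narrow range.

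Cdh1 had intensities of 189, 155 and 177 in P19 NTES7, 102, 99.1 and 54.4 in P19 and 456, 445 and 517 in R1. No array of any line overlapped with another line, and the lines were ordered P19, P19 NTES7, R1 from low to high. The difference of P19 from R1 was -2.52 (standard error 0.19, adjusted p = 2.68e-07) on the log2 scale, a level 5.75-fold lower in P19. P19 NTES7 was 2.11-fold higher than P19, a log2 difference of 1.08 (standard error 0.19, adjusted p = 0.00144), and 2.73-fold lower than R1, a log2 difference of -1.45 (standard error 0.19, adjusted p = 8.41e-05). The third P19 array was the lowest of all and widened the gap to P19 NTES7. Without it, the log2 difference of P19 NTES7 from parental P19 was 0.78 (adjusted p = 0.000801), short of a 2-fold change, so the call of Cdh1 rests on that array while the direction does not.

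Cdh2 was highest in P19 NTES7, where it had intensities of 151, 137 and 128, against 122, 116 and 109 in P19 and 68.2, 66.4 and 65.1 in R1. The R1 arrays differed from each other by little, and all lay below those of the other lines. P19 NTES7 was 2.08-fold above R1, a log2 difference of 1.05 (standard error 0.10, adjusted p = 2.76e-06). Without the first P19 NTES7 array this difference was 0.99 (adjusted p = 2.68e-05), which is just under the fold limit. The log2 difference of P19 from R1 was 0.79 (standard error 0.10, adjusted p = 2.03e-05), past the p limit and short of a 2-fold change. Between P19 NTES7 and P19 the log2 difference was 0.26 (standard error 0.10, adjusted p = 0.0806), although the arrays did not overlap.

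To set both cadherins against each other, the log2 value of Cdh2 was subtracted from that of Cdh1 on each array, and the result was expressed relative to the R1 mean, since the brightness of 2 different probe sets cannot be compared directly. This balance was -2.50, -2.65 and -2.36 in P19 NTES7, -3.07, -3.05 and -3.83 in P19, and -0.09, -0.08 and 0.17 in R1. It was thus lowest in P19 and highest in R1, with no overlap between lines. The log2 difference in balance of P19 from R1 was -3.32, a 9.98-fold shift from Cdh1 towards Cdh2. That of P19 NTES7 from R1 was -2.50, a 5.66-fold shift, and that of P19 NTES7 from P19 was 0.82, a 1.76-fold shift towards Cdh1. An exact two-sided permutation test gave p = 0.1 for each pair of lines, the smallest value that 3 arrays against 3 can give. Over all 3 lines, an exact permutation test of the F statistic gave p = 0.00357, which is the smallest value that its 1680 arrangements can give.

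**Figure D2:**
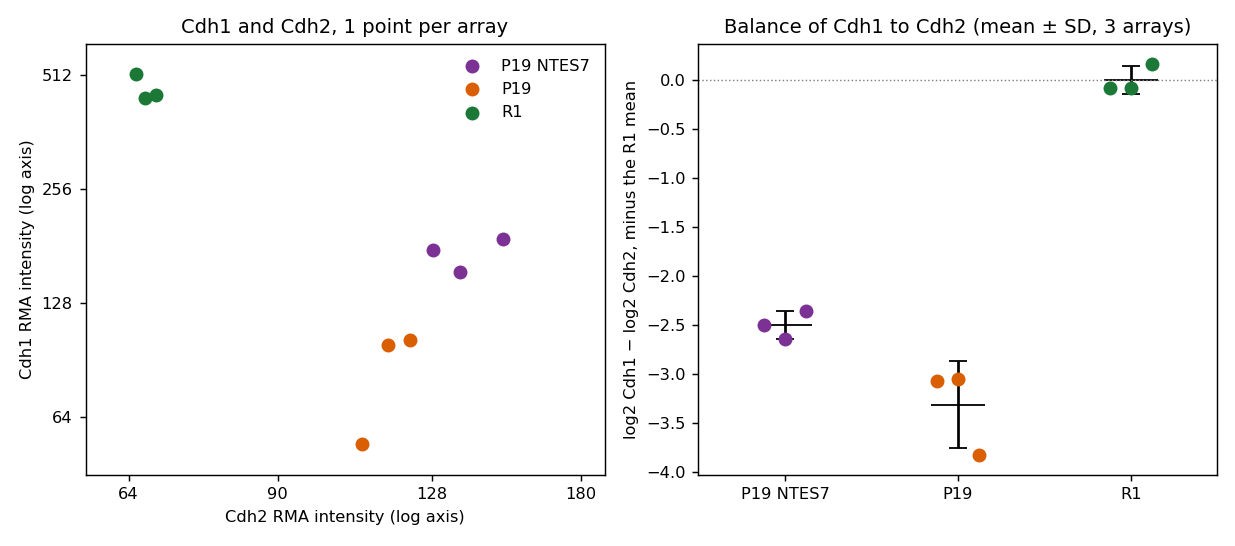
Left, Cdh1 against Cdh2 intensity (log axes) with 1 point per array. Right, the difference of log2 Cdh1 and log2 Cdh2 relative to the R1 mean on each array, with mean and SD over 3 arrays of P19 NTES7, P19 and R1. P19 NTES7 has more Cdh1 than P19 and no less Cdh2, so its balance of -2.50 stays closer to P19 at -3.32 than to R1 at 0.

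Cdh3 encodes P-cadherin, a classical cadherin of basal epithelia and placenta, and its gene is next to Cdh1 in the mouse genome with no other protein-coding gene in between. Its intensities were 28.4, 23.9 and 28.6 in P19 NTES7, 21.7, 21.4 and 29.6 in P19 and 56.1, 53.8 and 77.2 in R1. P19 NTES7 and P19 overlapped and both lay below R1. The log2 difference was -1.36 (standard error 0.16, adjusted p = 1.34e-05) for P19 against R1 and -1.19 (standard error 0.16, adjusted p = 7.05e-05) for P19 NTES7 against R1. P19 NTES7 differed from P19 by 0.17 (standard error 0.16, adjusted p = 0.533) on the log2 scale, which is within the spread of the arrays. Of 19 other cadherin genes, 12 were at or below the array median on all 9 arrays. Cdh11, a cadherin of mesenchymal cells, was called higher in P19 NTES7 than in parental P19 and lower in P19 than in R1, at 87.5 ± 2.68 in P19 NTES7, 23.4 ± 2.22 in P19 and 145 ± 3.63 in R1. Cdh10 and Cdh9, cadherins of the nervous system, were lower, past the call limits, in P19 NTES7 than in parental P19, and Cdh10 was called higher in P19 than in R1. Cdh9 was not called without the first P19 array, and with the offset neither gene was called in any comparison. Cdh10 was at 13.9 ± 1.25 in P19 NTES7, 41.7 ± 7.74 in P19 and 14.8 ± 1.14 in R1, and Cdh9 was at 8.94 ± 0.884 in P19 NTES7, 18.99 ± 3.02 in P19 and 10.2 ± 0.811 in R1. The other cadherins of the list were not called in any of the 3 comparisons.

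Esrp1 showed the widest gap of the 10 genes between P19 and R1. Esrp1 is an RNA-binding protein that directs epithelial splice forms of targets such as Fgfr2 and Cd44. It had intensities of 44.5, 37.99 and 38.1 in P19 NTES7, 32.7, 34.4 and 25.6 in P19 and 254, 276 and 248 in R1. The arrays of P19 NTES7 were all slightly above those of P19 and all far below those of R1. Esrp1 was 8.45-fold lower in P19 than in R1, which is a log2 difference of -3.08 (standard error 0.12, adjusted p = 4.3e-10), and 6.46-fold lower in P19 NTES7 than in R1, which is a log2 difference of -2.69 (standard error 0.12, adjusted p = 2.99e-09). P19 NTES7 differed from P19 by 0.39 (standard error 0.12, adjusted p = 0.0404) on the log2 scale. Its paralog Esrp2 had intensities of 14.6, 12.5 and 15.3 in P19 NTES7 and 14.6, 12.2 and 9.35 in P19, all below the array median, against 31.5, 25.9 and 31.3 in R1. Esrp2 was called lower in P19 than in R1, with a log2 difference of -1.31 (standard error 0.15, adjusted p = 1.23e-05), and lower in P19 NTES7 than in R1, with -1.07 (standard error 0.15, adjusted p = 0.000128). Without the second P19 NTES7 array P19 NTES7 against R1 gave -0.98 (adjusted p = 0.00131), just short of a 2-fold change.

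The arrays give 1 level for each gene here and do not resolve splice forms, so the targets of both splicing factors were compared only by level. Of 10 target genes and partners, 1 was called higher and 2 lower in P19 than in R1, while in P19 NTES7 relative to parental P19 1 was called higher and 0 lower. The shares over all probe sets were 3.70% in each direction in the first comparison, and 1.55% higher and 1.36% lower in the second. The median log2 difference of the list was -0.06 for P19 against R1. Enah, a regulator of actin growth, was at 139.8 ± 19.3 in P19 NTES7, 189.9 ± 11.3 in P19 and 636 ± 13.7 in R1, and was called lower in P19 NTES7 and in P19 than in R1. Magi1, a scaffold protein of cell junctions, was called higher in P19 NTES7 and in P19 than in R1, at 78.6 ± 11.6 in P19 NTES7, 117 ± 4.96 in P19 and 33.1 ± 6.35 in R1. Cd44, the hyaluronan receptor, was called higher in P19 NTES7 than in parental P19 and lower in P19 than in R1, at 40.4 ± 3.18 in P19 NTES7, 12.7 ± 0.364 in P19 and 38.5 ± 7.11 in R1. Fgfr2, the receptor with the best known epithelial exon, was at 21.0 ± 0.905 in P19 NTES7, 22.6 ± 1.23 in P19 and 34.5 ± 2.80 in R1, below the fold limit in every comparison.

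Grhl2 was called lower than in R1 in P19 NTES7 and in P19, and unlike Cdh1 it was lowest in P19 NTES7. The transcription factor Grhl2 activates Cdh1 and other junction genes in epithelia. Its intensities were 15.5, 18.0 and 13.5 in P19 NTES7, 27.4, 26.5 and 21.2 in P19 and 106, 109 and 86.5 in R1, with no overlap between lines. The values of P19 NTES7 lay around the array median. The log2 difference from R1 was -2.69 (standard error 0.14, adjusted p = 1.1e-08) in P19 NTES7 and -2.01 (standard error 0.14, adjusted p = 9.53e-08) in P19. P19 NTES7 was below P19 by a log2 difference of -0.68 (standard error 0.14, adjusted p = 0.00333), past the p limit but short of a 2-fold change. Cdh1 and Grhl2 thus lay on opposite sides of P19 in P19 NTES7, at log2 differences of 1.08 and -0.68.

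Other epithelial transcription factors were also called lower in P19 than in R1, and most of these were above parental P19 in P19 NTES7. Of 10 such genes, 5 were called lower in P19 than in R1 and 0 higher. Against parental P19, 4 were called higher in P19 NTES7 and 0 lower. Against R1, 1 gene, Klf5, was called lower in P19 NTES7, a call that was lost without the second P19 NTES7 array. Over all probe sets, 3.70% were called lower in the first of these comparisons, 1.55% higher in the second and 2.53% lower in the third. Grhl3, a paralog of Grhl2 that acts in the closure of skin and neural tube, was at 57.9 ± 8.66 in P19 NTES7, 17.3 ± 2.17 in P19 and 73.1 ± 10.7 in R1. Grhl3 in P19 NTES7 differed from R1 by -0.34 (standard error 0.14, adjusted p = 0.11) on the log2 scale, where Grhl2 differed by -2.69. Klf5, a zinc finger factor of ES cells and gut epithelium, was at 136 ± 15.0 in P19 NTES7, 44.9 ± 5.31 in P19 and 278 ± 8.23 in R1, and Tfap2c, a factor of trophectoderm and germ cells, at 55.1 ± 5.32 in P19 NTES7, 18.6 ± 1.40 in P19 and 105 ± 1.502 in R1. Elf3, an ETS factor of epithelia, was at 23.3 ± 4.23 in P19 NTES7, 9.80 ± 1.07 in P19 and 37.6 ± 4.59 in R1. The fifth gene called lower in P19 than in R1 was Grhl1, at 10.9 ± 1.09 in P19 NTES7, 9.51 ± 0.670 in P19 and 19.1 ± 2.04 in R1, which lies outside the rule for named genes and was added after its values were seen. Its fold was 2.00, and it was not called without the second P19 array, nor without the first or the second R1 array, nor with array medians set equal or quantile normalization. Its levels in P19 NTES7 and P19 were below the array median. Another 5 of the 10 factors, among them Ovol1, Ovol2 and Trp63, stayed below the array median on all 9 arrays.

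**Figure D3:**
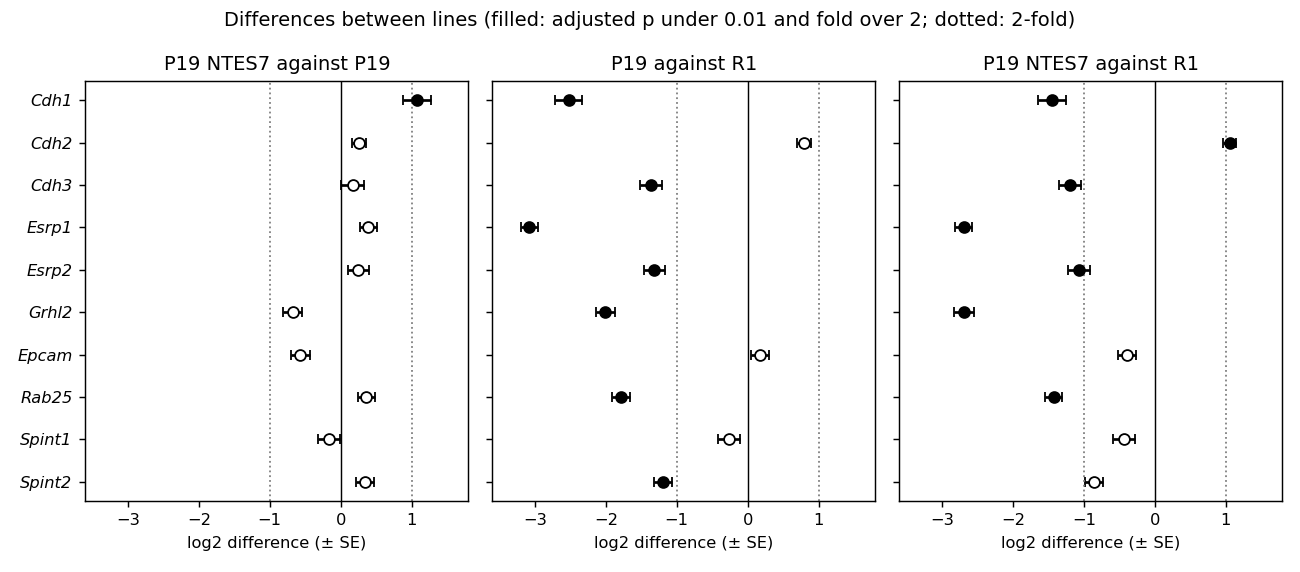
Log2 differences of the 10 genes in the 3 comparisons with standard errors from limma. Filled points have an adjusted p under 0.01 and a fold over 2, and dotted lines mark a 2-fold change. Of the 10 genes, 1 is filled in P19 NTES7 against P19, 7 in P19 against R1 and 7 in P19 NTES7 against R1, and Grhl2 and Epcam lie left of 0 in the first comparison while Cdh1 lies right of it.

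Epcam and Rab25 are shown with the sequences before their starts because they are epithelial surface and trafficking genes that differed in how they varied between the lines. RefSeq promoters of build GRCm38.p6 matched 4 of the 10 genes, Epcam, Rab25, Spint1 and Spint2. The motifs searched on both strands were CACCTG, the E-box bound by repressors of the Snail and Zeb families, AACCNGTT, a binding motif of the grainyhead factors to which Grhl2 belongs, and the general promoter motifs GGGCGG and CCAAT. In the sequences of Rab25 (chr3:88548280-88548529, minus strand) and Epcam (chr17:87635729-87635978, plus strand), which hold the 250 bases before the start of each gene, the capitals mark the matches to CACCTG and AACCNGTT.
Rab25: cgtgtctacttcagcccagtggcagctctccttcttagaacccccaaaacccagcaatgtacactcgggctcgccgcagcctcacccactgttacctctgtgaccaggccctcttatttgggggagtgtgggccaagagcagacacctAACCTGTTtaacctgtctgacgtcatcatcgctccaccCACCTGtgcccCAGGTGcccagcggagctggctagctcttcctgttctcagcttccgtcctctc
Epcam: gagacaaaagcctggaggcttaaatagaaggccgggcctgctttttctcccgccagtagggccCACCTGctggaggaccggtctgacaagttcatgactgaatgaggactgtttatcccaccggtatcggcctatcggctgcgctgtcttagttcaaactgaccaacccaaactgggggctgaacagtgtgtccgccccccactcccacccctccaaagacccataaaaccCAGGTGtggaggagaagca
Rab25 held 2 matches to CACCTG, starting 64 and 53 bases before the start, and 1 match to AACCNGTT, 102 bases before it. Epcam held 2 matches to CACCTG, 187 and 19 bases before its start, and 0 to AACCNGTT. Counted from 250 bases before to 50 after the start, Spint2 held 3 matches to CACCTG and Spint1 0. The start used for Spint2 is not the outermost annotated start of its gene, unlike those of Epcam, Rab25 and Spint1. Of all 32851 promoters of this length, 20.2% held CACCTG, 2.88% held at least 2 matches and 0.365% at least 3, and 2.09% held AACCNGTT. GGGCGG had 1 match in Epcam, 0 in Rab25, 3 in Spint1 and 3 in Spint2, and 35.7% of all promoters held it. CCAAT had 1 match in Spint1 and 0 in the other 3, and 37.4% of all promoters held it. These matches are descriptions of letters and do not show that a factor was bound.

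Rab25, a small GTPase that recycles membrane proteins to the surface of epithelial cells, had intensities of 11.99, 10.1 and 14.3 in P19 NTES7 and 9.55, 9.16 and 9.35 in P19, against 32.2, 29.9 and 34.9 in R1. It was below the array median on every array of P19 NTES7 and P19 and above it on every array of R1. The log2 difference was -1.79 (standard error 0.12, adjusted p = 8.98e-08) for P19 against R1 and -1.43 (standard error 0.12, adjusted p = 1.52e-06) for P19 NTES7 against R1. The arrays of P19 NTES7 lay above those of P19, with a log2 difference of 0.36 (standard error 0.12, adjusted p = 0.0568), with all of these levels below the array median.

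Epcam is an adhesion molecule of epithelia and a surface marker of pluripotent cells. Its intensities were 211, 168 and 163 in P19 NTES7, 266, 291 and 243 in P19 and 213, 224 and 274 in R1. P19 and R1 overlapped, and the P19 NTES7 arrays lay below both. The log2 difference of P19 from R1 was 0.17 (standard error 0.13, adjusted p = 0.346). The log2 difference of P19 NTES7 from parental P19 was -0.57 (standard error 0.13, adjusted p = 0.00724) and that from R1 was -0.39 (standard error 0.13, adjusted p = 0.0401), so the gene passed the p limit against P19 alone and the fold limit against neither line.

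Among 15 measured genes of epithelial polarity and trafficking, 2 were called higher and 1 lower in P19 than in R1, and 0 were called in P19 NTES7 against P19. The shares over all probe sets were 3.70% in each direction in the first comparison and 2.91% in either direction in the second. The median log2 difference of the 15 genes was 0.03 for P19 against R1, so this list did not show the shift of the 10 genes. Ap1m2, the epithelial subunit of the AP-1 sorting adaptor, followed Rab25 in its pattern and was at 12.2 ± 0.731 in P19 NTES7, 10.3 ± 0.590 in P19 and 59.4 ± 6.57 in R1. Rab11fip1, an effector that binds Rab25, was called higher in P19 NTES7 and in P19 than in R1, at 106 ± 15.8 in P19 NTES7, 78.3 ± 2.50 in P19 and 39.4 ± 9.64 in R1. For P19 against R1 this call was lost without the first P19 array, without the first or the second R1 array, and with quantile normalization. Lsr, a receptor of tricellular junctions, was called higher in P19 than in R1, at 65.3 ± 7.88 in P19 NTES7, 111 ± 12.1 in P19 and 45.5 ± 1.69 in R1. Llgl2, a polarity protein of the basolateral side, was called lower in P19 NTES7 than in R1, at 18.1 ± 1.23 in P19 NTES7, 26.3 ± 2.10 in P19 and 47.2 ± 3.24 in R1. Cldn7, the claudin that binds Epcam, was at 15.3 ± 4.04 in P19 NTES7, 13.6 ± 2.82 in P19 and 26.4 ± 1.42 in R1, where P19 against R1 gave -0.98 (standard error 0.17, adjusted p = 0.000549) on the log2 scale, and was named for that partnership after its values were seen.

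Spint1 and Spint2 encode Kunitz-type inhibitors of the membrane-anchored proteases of epithelia, and only Spint2 was called in any comparison. Spint2 had intensities of 147, 108 and 116 in P19 NTES7, 101, 103 and 87.5 in P19 and 246, 226 and 196 in R1. No line overlapped with another. Spint2 was called lower in P19 than in R1, with a log2 difference of -1.19 (standard error 0.13, adjusted p = 8.16e-06), while P19 NTES7 against R1, at -0.85 (standard error 0.13, adjusted p = 0.000257), passed the p limit and not the fold limit. The log2 difference of P19 NTES7 from parental P19 was 0.34 (standard error 0.13, adjusted p = 0.0921). Spint1 had intensities of 61.3, 56.6 and 47.3 in P19 NTES7, 57.3, 61.3 and 65.6 in P19 and 64.3, 64.4 and 97.2 in R1. The third R1 array was above all others, and the first and second R1 arrays lay within the range of P19. The log2 difference of Spint1 was -0.27 (standard error 0.15, adjusted p = 0.215) for P19 against R1, -0.43 (standard error 0.15, adjusted p = 0.0574) for P19 NTES7 against R1 and -0.16 (standard error 0.15, adjusted p = 0.539) for P19 NTES7 against P19, so no difference passed the test.

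A protease that both inhibitors hold in check is matriptase, encoded by St14. St14 was at 25.6 ± 1.93 in P19 NTES7, 18.7 ± 1.10 in P19 and 85.5 ± 4.30 in R1. It was called lower in P19 than in R1, with a log2 difference of -2.19 (standard error 0.10, adjusted p = 1.45e-09), and lower in P19 NTES7 than in R1, with -1.74 (standard error 0.10, adjusted p = 2.62e-08). P19 NTES7 against P19 gave 0.45 (standard error 0.10, adjusted p = 0.00509). Of 10 measured genes of this protease system, St14 was the only one called in any comparison, and 6 of the 10, among them Hpn and Tmprss2, stayed below the array median on all arrays. Calls in either direction covered 7.40% of all probe sets in P19 against R1 and 4.52% in P19 NTES7 against R1.

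The partners of E-cadherin at the adherens junction differed in direction. Of 11 adherens junction partners, 1 was called higher and 1 lower in P19 than in R1, with a median log2 difference of 0.24. In this comparison 3.70% of all probe sets were called in each direction. Ctnnb1, which encodes β-catenin, the direct partner of the E-cadherin tail, was at 489 ± 23.0 in P19 NTES7, 629.6 ± 47.3 in P19 and 535 ± 67.2 in R1, with a log2 difference of 0.24 (standard error 0.11, adjusted p = 0.117) for P19 against R1. Ctnnd1, which encodes a catenin that stabilises cadherins at the membrane, was at 219 ± 11.4 in P19 NTES7, 207 ± 9.39 in P19 and 322 ± 10.4 in R1, and P19 against R1 gave -0.64 (standard error 0.09, adjusted p = 9.36e-05) on the log2 scale, past the p limit and short of a 2-fold change. Ctnna1, which encodes α-catenin, was at 474 ± 27.96 in P19 NTES7, 474 ± 13.7 in P19 and 584 ± 7.37 in R1, and P19 against R1 gave -0.30 (standard error 0.09, adjusted p = 0.0189). Ctnnd1 and Ctnna1 were added after their values were seen. Jup, which encodes plakoglobin, was the partner called lower, at 74.3 ± 24.4 in P19 NTES7, 59.0 ± 0.286 in P19 and 192 ± 28.6 in R1, and was also called lower in P19 NTES7 than in R1. Nectin3, an immunoglobulin-type adhesion molecule, was the partner called higher in P19, at 126 ± 9.34 in P19 NTES7, 206 ± 14.2 in P19 and 76.1 ± 8.29 in R1. Nectin1 was called lower in P19 NTES7 than in parental P19, at 21.0 ± 2.51 in P19 NTES7, 53.0 ± 4.32 in P19 and 35.1 ± 4.81 in R1.

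The repressors of Cdh1 differed in direction. Zeb2 and Zeb1 had their highest means in P19, where Cdh1 was lowest, Snai1 had its lowest mean there, and Snai2 was not called. Zeb2 had intensities of 55.5, 59.4 and 50.98 in P19 NTES7, 89.0, 87.5 and 80.6 in P19 and 23.3, 24.3 and 22.1 in R1. The lines did not overlap, and their order was the reverse of that of Cdh1. Zeb2 was called higher in P19 than in R1, with a log2 difference of 1.88 (standard error 0.10, adjusted p = 6.17e-09), and higher in P19 NTES7 than in R1, with 1.25 (standard error 0.10, adjusted p = 5.98e-07). Zeb2 in P19 NTES7 against P19 had a log2 difference of -0.63 (standard error 0.10, adjusted p = 0.000412), under the fold limit. With the offset, Zeb2 was not called in P19 NTES7 against R1. Zeb1 was at 63.5 ± 13.1 in P19 NTES7, 93.8 ± 9.75 in P19 and 49.0 ± 2.95 in R1, with a log2 difference of 0.93 (standard error 0.14, adjusted p = 0.000148) for P19 against R1, and Snai2 was at 17.6 ± 3.43 in P19 NTES7, 19.02 ± 0.276 in P19 and 21.5 ± 1.77 in R1, close to the array median. Snai1 had intensities of 24.2, 19.6 and 20.8 in P19 NTES7, 9.90, 11.8 and 11.7 in P19 and 18.3, 18.8 and 20.5 in R1. All P19 arrays were below the array median and below the arrays of the other lines. The log2 difference of Snai1 was 0.95 (standard error 0.11, adjusted p = 4.46e-05) for P19 NTES7 against P19 and -0.79 (standard error 0.11, adjusted p = 8.62e-05) for P19 against R1, both past the p limit and short of a 2-fold change. Snai1 was added after its values were seen. Of 11 transcription factors of the epithelial to mesenchymal transition (EMT), 1 was called higher and 2 lower in P19 than in R1. For all probe sets the share was 3.70% in each direction. In P19 NTES7 relative to parental P19, Prrx1 was called higher, and without the second P19 NTES7 array Snai1 was called higher as well. Those called lower in P19 were Prrx1, at 38.5 ± 1.65 in P19 NTES7, 8.74 ± 0.329 in P19 and 99.7 ± 9.65 in R1, and Twist2, at 18.2 ± 2.59 in P19 NTES7, 12.1 ± 0.737 in P19 and 33.0 ± 2.16 in R1, both factors of mesenchymal cells. The called EMT factors thus did not share 1 direction.

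**Figure D4:**
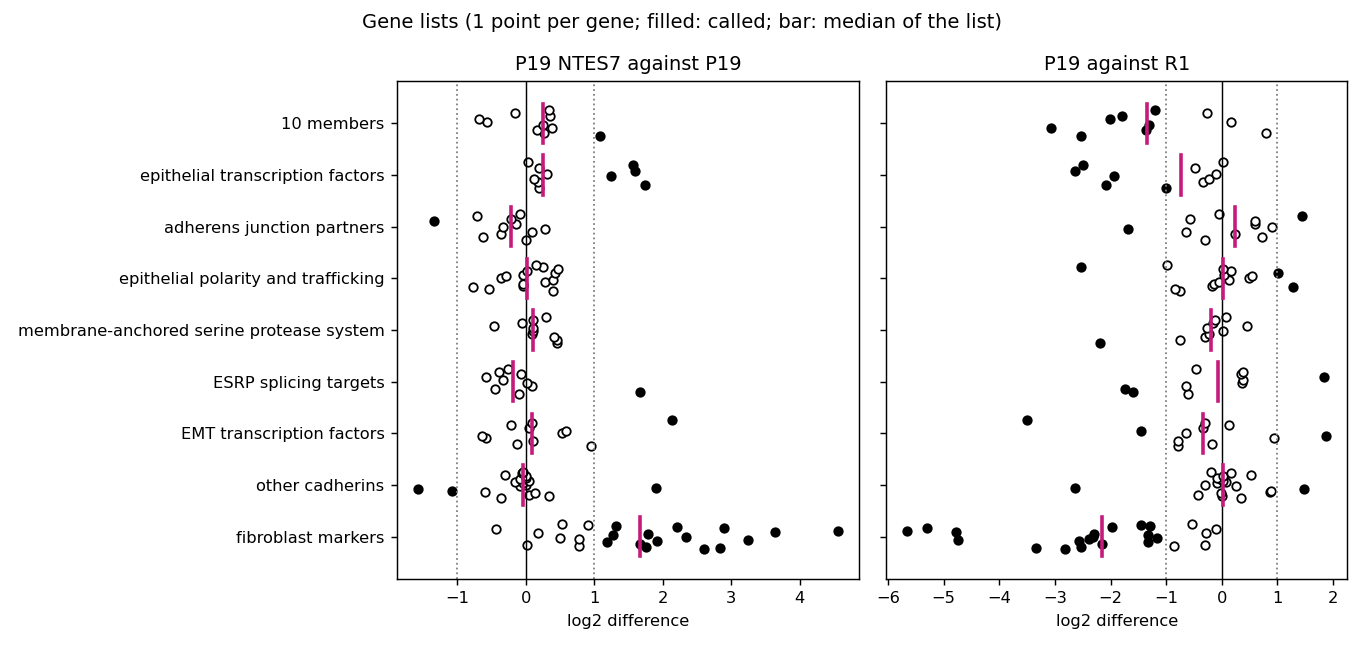
Log2 differences of single genes (points; filled where called) and the median of each list (bar) for P19 NTES7 against P19 and for P19 against R1. The 10 genes have a median of -1.34 in P19 against R1 and of 0.25 in P19 NTES7 against P19, and the fibroblast markers have medians of -2.16 and 1.67.

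Markers of fibroblasts, the usual feeder cells, moved in the same direction as most of the 10 genes between P19 and R1. Of 23 measured markers, 18 were called lower in P19 than in R1 and 0 higher, 15 were called higher in P19 NTES7 than parental P19 and 0 lower, and 5 were called lower in P19 NTES7 than R1 and 0 higher. The shares of all probe sets called in the directions of these markers were 3.70%, 1.55% and 2.53%. The summed intensity of the 23 genes ran from 2185 to 2569 in P19 NTES7, from 842 to 877.2 in P19 and from 3320 to 3776 in R1. Vim was the brightest of the 23 in every line and weighed most on the sum. It was at 637 ± 31.5 in P19 NTES7, 443 ± 2.81 in P19 and 643 ± 92.2 in R1. Mmp2 was lower in P19 NTES7 than in P19, at 52.5 ± 4.63 in P19 NTES7, 70.7 ± 2.82 in P19 and 76.7 ± 15.3 in R1. Tnc, Mmp3, Thbs1 and Dcn, the markers with the widest differences, were at or close to the array median or below it in P19. Tnc was at 205 ± 14.0 in P19 NTES7, 8.73 ± 1.02 in P19 and 441 ± 42.1 in R1. Of the 23 markers, 13 were below the array median on all 3 P19 arrays and 6 were above it on all 3, among them Vim, Mmp2 and the collagen genes Col1a1 and Col1a2. On all 3 arrays of a line, 21 were above it in P19 NTES7 and 22 in R1. The line means of Cdh1, Cdh3, Esrp1, Esrp2, Rab25 and Spint2 had the same order as this sum, as did those of Klf5, Tfap2c, Grhl3, Elf3, Cdh11, Prrx1 and Twist2. St14, Jup, Ap1m2 and Cldn7 also had this order. Among the pluripotency markers, Nanog, Zfp42 and Dppa4 had it too, whereas Pou5f1 and Utf1 did not. Cdh2, which fibroblasts also express, was lowest in R1, where the summed fibroblast markers were highest. Grhl2 was lowest in P19 NTES7, whose summed markers lay between those of P19 and R1. The part of fibroblast RNA in the levels of the 10 genes was not tested, and in bulk samples a change in the share of a cell type and a change of RNA per cell cannot be told apart.

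Of 10 pluripotency markers, 3 were called lower in P19 than in R1 and 0 higher, while in P19 NTES7 relative to parental P19 2 were called higher and 1 lower. Zfp42, 1 of the 2, was not called without the third P19 array. Against R1, 0 were called higher in P19 NTES7 and 3 lower, namely Zfp42, Utf1 and Dppa4, of which Dppa4 was not called without the third R1 array. Of all probe sets, 3.70% were called lower in P19 than in R1. In P19 NTES7, 1.55% of them were called higher and 1.36% lower than in P19, and 2.53% lower than in R1. Nanog was at 627 ± 11.4 in P19 NTES7, 178 ± 15.6 in P19 and 913 ± 59.4 in R1, in the same order as Cdh1. Zfp42, a marker of the naive state, was at 41.7 ± 3.19 in P19 NTES7, 19.7 ± 5.19 in P19 and 289 ± 37.8 in R1, and Dppa4 at 99.1 ± 6.34 in P19 NTES7, 57.9 ± 10.1 in P19 and 221 ± 47.5 in R1. Utf1 was called lower in P19 NTES7 than in both other lines, at 73.5 ± 20.3 in P19 NTES7, 471 ± 70.4 in P19 and 584 ± 79.1 in R1. Among the 10 epithelial genes, Grhl2 and Epcam also had their lowest mean in P19 NTES7, as did Spint1, whose differences did not pass the test.

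Over the 9 arrays, the log2 values of Klf2 correlated most with those of Cdh1 among 1873 genes whose line means differed by more than 1 log2 unit, with Pearson's r = 0.990. Klf2, a Krüppel-like factor of naive ES cells, was at 53.2 ± 9.27 in P19 NTES7, 21.1 ± 4.15 in P19 and 161 ± 10.9 in R1. F11r, which encodes the junctional adhesion molecule JAM-A, followed with r = 0.989, at 66.6 ± 7.29 in P19 NTES7, 38.3 ± 4.62 in P19 and 116 ± 0.417 in R1. Apobec3 (r = 0.987), Tor1aip2 (r = 0.985) and the F-box gene Fbxo15 (r = 0.982) completed the 5 highest. Of the other 9 epithelial genes, Esrp2, Spint2, Rab25 and Esrp1 had r between 0.934 and 0.957 with Cdh1, Cdh3 0.848, Grhl2 0.755, Spint1 0.449, Epcam -0.107 and Cdh2 -0.728. The genes most like Cdh2 were Hecw2 (r = 0.990), Nhsl1 (r = 0.988), Fat3 (r = 0.985), Psmb3 (r = 0.983) and Trit1 (r = 0.982). Fat3, an atypical cadherin, was at 176 ± 11.3 in P19 NTES7, 134 ± 4.42 in P19 and 36.5 ± 1.799 in R1. Grhl2 had r = -0.967 with Cdh2, the most negative of the epithelial genes. These are descriptions over 9 arrays of 3 lines, in which arrays share a line, so they give no independent support of a link between genes.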

How the data were processed

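RNA of 3 mouse lines was labelled with biotin and hybridised to 9 Affymetrix Gene 1.0 ST arrays. Each deposited value is an intensity on the linear scale for 1 probe set and 1 array, which the authors made with Robust Multichip Average. Array medians show that the median scaling named in the methods was not applied to the deposited values. The genome build was not given in the sources used here. A mean per line was fitted over all 9 arrays to log2 intensities of the 28853 probe sets, unfiltered and with no offset, in limma 3.58.1 (R 4.3.3), and calls needed a Benjamini-Hochberg adjusted p under 0.01 and a fold over 2. Symbols came from the platform annotation (1 symbol for 21789 probe sets, several for 1621, none listed for 5443), updated through gene identifiers, and the brightest probe set stood for each gene. Of 122 entries in 9 further lists, 119 were measured. The fit was tested on simulated data, and the number of arrays limits the precision.

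The genes and lists were chosen with earlier results of these data known. Named genes are the 10 epithelial genes, up to 4 called genes of each list with the largest differences, the 5 genes most like Cdh1 and the 5 most like Cdh2, and Snai2, Zeb1, Zeb2, St14 and Ctnnb1. Pou5f1, Fgfr2, Grhl1, Cldn7, Snai1, Ctnnd1, Ctnna1, Col1a1, Col1a2, Vim, Mmp2, Hpn, Tmprss2, Ovol1, Ovol2 and Trp63 were added after their values were seen. Alternatives were other scalings, an offset of 16 before log2, a filter on dim probe sets, the mean over probe sets of a gene, other variance models, fits of 2 lines, the methods' one-way test, a replicate block and each array left out.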

Additional observations from a re-analysis of the deposited data

How the results depend on the processing

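Recomputed under every alternative, the log2 differences of the 10 genes kept their direction in all cases and their side of the call in 559, while 11 lost it. The direction could change only with other scalings, the offset, or an array of a compared line left out. The other alternatives cannot change the log2 difference of these genes, each of which has 1 probe set, so their direction there was fixed. An offset of 16 before log2, which shrinks folds of dim genes, left 0 of the 10 genes called in P19 NTES7 against P19, 4 in P19 against R1 and 3 in P19 NTES7 against R1, and 412, 1088 and 709 of all probe sets in these comparisons, against 839, 2135 and 1305 without it. With this offset, the balance of Cdh1 to Cdh2 was -2.98 log2 units for P19 against R1 and -2.27 for P19 NTES7 against R1. Of the list genes named, the offset ended the calls of Nectin1, Elf3, Cdh9, Cdh10, Cd44 and Zfp42 in P19 NTES7 against P19, of Grhl1, Rab11fip1, Twist2, Cdh10 and Cd44 in P19 against R1, and of Klf5, Llgl2, Zeb2 and Magi1 in P19 NTES7 against R1. Leaving out 1 array at a time, 0 to 1 of the 10 genes were called in P19 NTES7 against P19 (0 without the third P19 array), 7 in every case in P19 against R1, and 6 to 7 in P19 NTES7 against R1 (6 without the first or the second P19 NTES7 array). The balance of Cdh1 to Cdh2 then ran from 0.56 to 0.95 for P19 NTES7 against P19, from -3.45 to -3.06 for P19 against R1 and from -2.57 to -2.42 for P19 NTES7 against R1. The replicate block changed no call of the 10 genes, and 837, 2136 and 1302 probe sets were called with it, against 839, 2135 and 1305 without. The numbers did not pair the arrays: deviations of same-numbered arrays from their line means correlated at -0.223 to 0.0403, 0 of 9 pairs were over 0.1, and 0 of 9 arrays correlated best with their own number in both other lines. The methods' one-way test with the fold limit called 810 probe sets in P19 NTES7 against P19, 2082 in P19 against R1 and 1279 in P19 NTES7 against R1 at their p limit, and 723, 1892 and 1188 after Benjamini-Hochberg adjustment. That test was run here with 1 p over the 3 lines for each probe set, so only the fold is specific to a pair. Levels near the array median, such as those of Rab25 and Esrp2 in P19 NTES7 and P19, have folds that are not exact.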
